A study of Mus musculus with 4 samples.

Results

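Chromatin accessibility after stimulation with phorbol 12-myristate 13-acetate (PMA) and ionomycin was compared with that of unstimulated cells, in CD8+ T cells that had received no drug. The regions described are those held by the peak list of the stimulated untreated library, by that of the unstimulated untreated library, or by both. They were obtained by merging both lists wherever peaks overlapped by at least 1 bp on chromosomes 1 to 19 and X. This gave 11622 regions, against 15237 when all 4 lists of the series were merged.

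The assay was ATAC-seq, in which Tn5 transposase inserts sequencing adapters into open DNA. The study held 4 libraries of CD8+ lymphocytes of the Balb/c mouse strain, 1 per condition, and its title calls the cells tumour-infiltrating. The stimulated untreated cells received PMA and ionomycin for 2 h, given in the labels as 1 mg/mL and 10 mM without saying whether these were stock or final concentrations. The unstimulated untreated cells received neither agent, and no group compared here received the drug of the other arm, phenelzine. The sources used here name no tumour model, no number of animals per library and no way of sorting. There was no replicate, so no difference below has a check against the spread between animals or libraries, no test was made, and no p-value is given between conditions.

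PMA and ionomycin replace the signals that a T cell receives through its antigen receptor. PMA imitates diacylglycerol, which activates protein kinase C and the RasGRP exchange factors and, through them, the ERK kinases and the CARMA1 complex that releases NF-kB. Ionomycin carries calcium into the cell, so that calmodulin activates the phosphatase calcineurin, which sends NFAT factors to the nucleus. Early response genes such as those of AP-1, EGR and NR4A factors are transcribed within minutes of such signals, followed by cytokine and effector genes. Open promoters and enhancers are the usual sites of ATAC-seq peaks.

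Promoters of 6 genes show what a region held by 1 list alone looks like at base level. Each window runs from 250 bases before to 50 bases after an annotated start site, is written 5′ to 3′ along the gene, and comes from RefSeq on GRCm38.p6, the build whose coordinates mm10 shares. Capitals mark the bases inside the called peak. The first 5 peaks were in the stimulated list alone and the last in the unstimulated list alone. Nr4a3 and Fos represent early response genes, Junb the strongest start-site peak of an AP-1 gene, Ccl3 a chemokine, Rpl37a the strongest gene-end peak of the stimulated list alone, and Nfkbid an inhibitor of NF-kB.
Nr4a3: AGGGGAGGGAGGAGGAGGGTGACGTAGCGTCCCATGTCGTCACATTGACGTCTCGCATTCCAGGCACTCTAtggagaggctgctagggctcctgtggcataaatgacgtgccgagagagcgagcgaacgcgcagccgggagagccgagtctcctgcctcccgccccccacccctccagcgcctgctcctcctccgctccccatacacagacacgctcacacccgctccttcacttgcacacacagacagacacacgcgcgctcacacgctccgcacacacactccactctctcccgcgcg
Fos: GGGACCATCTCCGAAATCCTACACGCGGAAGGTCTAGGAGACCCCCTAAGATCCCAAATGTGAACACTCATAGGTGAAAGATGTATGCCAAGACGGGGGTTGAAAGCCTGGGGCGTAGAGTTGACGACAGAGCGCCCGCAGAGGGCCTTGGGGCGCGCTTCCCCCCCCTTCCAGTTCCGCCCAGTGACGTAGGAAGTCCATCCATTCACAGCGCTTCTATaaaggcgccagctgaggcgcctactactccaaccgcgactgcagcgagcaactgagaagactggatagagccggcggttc
Junb: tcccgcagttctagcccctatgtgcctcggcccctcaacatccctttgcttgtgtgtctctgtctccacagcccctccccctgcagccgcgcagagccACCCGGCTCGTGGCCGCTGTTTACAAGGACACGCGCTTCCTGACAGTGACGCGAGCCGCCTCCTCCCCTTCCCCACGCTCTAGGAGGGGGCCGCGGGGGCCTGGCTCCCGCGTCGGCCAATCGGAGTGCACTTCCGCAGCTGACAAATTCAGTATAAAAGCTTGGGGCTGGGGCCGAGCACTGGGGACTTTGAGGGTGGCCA
Ccl3: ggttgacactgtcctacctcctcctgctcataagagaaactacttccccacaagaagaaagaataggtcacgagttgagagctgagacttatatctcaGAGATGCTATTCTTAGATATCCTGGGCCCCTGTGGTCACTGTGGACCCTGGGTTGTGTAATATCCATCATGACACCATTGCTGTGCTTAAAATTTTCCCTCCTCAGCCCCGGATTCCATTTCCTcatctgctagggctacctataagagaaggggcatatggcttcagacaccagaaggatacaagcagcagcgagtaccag
Rpl37a: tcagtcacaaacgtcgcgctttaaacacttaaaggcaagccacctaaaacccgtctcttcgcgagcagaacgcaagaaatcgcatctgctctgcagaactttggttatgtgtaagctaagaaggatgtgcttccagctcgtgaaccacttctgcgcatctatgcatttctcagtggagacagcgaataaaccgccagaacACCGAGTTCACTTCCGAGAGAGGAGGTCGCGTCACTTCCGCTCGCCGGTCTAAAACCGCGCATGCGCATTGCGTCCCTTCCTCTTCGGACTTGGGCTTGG
Nfkbid: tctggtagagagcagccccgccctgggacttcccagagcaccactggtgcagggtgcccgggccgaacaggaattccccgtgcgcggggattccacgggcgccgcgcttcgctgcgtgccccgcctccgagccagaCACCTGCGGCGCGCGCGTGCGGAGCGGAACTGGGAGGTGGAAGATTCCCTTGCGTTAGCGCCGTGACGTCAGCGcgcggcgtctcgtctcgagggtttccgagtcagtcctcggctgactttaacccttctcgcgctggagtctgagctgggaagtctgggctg
The windows lie at chr4:48045055-48045354 on the plus strand for Nr4a3, chr12:85473640-85473939 on the plus strand for Fos and chr8:84978699-84978998 on the minus strand for Junb. Those of Ccl3, Rpl37a and Nfkbid lie at chr11:83649329-83649628 on the minus strand, chr1:72711010-72711309 on the plus strand and chr7:30422156-30422455 on the plus strand.

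Positions in these windows are counted from the start site as 0. In Nr4a3 the peak covered 71 bases at the far upstream edge of the window, and it held 2 of 3 matches to the cAMP response core TGACGT, at -231 to -226 and -205 to -200. In Fos the peak covered 220 bases up to -31 and held TGACGT at -66 to -61. On the other strand it held an NF-kB match at -214 to -205 and GGGCGG, bound by SP and KLF factors, at -74 to -69. The Junb peak spanned the start site, from -152 to 49, and held a CCAAT box at -36 to -32 and, on the other strand, an EGR match at -81 to -75. The Rpl37a peak covered 100 bases from -50 to 49, with GCATGCG, a core of the NRF1 site, at 9 to 15. The Nfkbid peak covered 74 bases and held TGACGT at -51 to -46, overlapping a match on the other strand. None of the 10 motifs searched was matched in the Ccl3 window. A match is a description of letters and not of binding.

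Stimulated cells had the longer list. The stimulated list alone held 5119 of the 11622 regions (44.0%, 95% Clopper-Pearson interval 43.1 to 45.0). The unstimulated list alone held 1223 (10.5%, 9.97 to 11.1), and 5280 (45.4%, 44.5 to 46.3) were in both. These intervals, like all below, cover counting error only. The stimulated list had 10405 peaks on the chromosomes used, covering 1942.94 kb, and the unstimulated list 6519 peaks covering 1137.68 kb. Total reads are not in the lists. The background pileup that the lists implied, a measure of depth, was 0.493 in stimulated and 0.392 in unstimulated cells, so depth and stimulation cannot be told apart as sources of the longer list. Cut to equal length, the lists left 2144 regions to the stimulated and 2133 to the unstimulated list alone, a near balance that equal lengths produce by construction.

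Regions of 1 list alone were narrower, weaker and farther from genes than shared ones. Median widths were 111 bp for the stimulated list alone, 93 bp for the unstimulated list alone and 223 bp for both. A shared region spans the peaks of both lists, which widens it. Within shared regions the peaks of 1 list had medians of 196 bp in stimulated and 153 bp in unstimulated cells. The peaks of the stimulated list had a median −log10 q of 2.2 where that list stood alone and 4.22 where the region was shared. The corresponding medians for the unstimulated list were 2.05 and 3.24. A region touched the 1 kb on either side of a gene end in 33.5% (32.2 to 34.8) of those of the stimulated list alone, 35.1% (32.4 to 37.8) of those of the unstimulated list alone and 71.8% (70.6 to 73.0) of shared ones. Outside genes and over 10 kb from any gene end lay 24.8%, 23.5% and 9.81% of them, in the same order. The 2 classes of unshared regions differed from each other in these shares by less than their counting intervals.

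**Figure D1:**
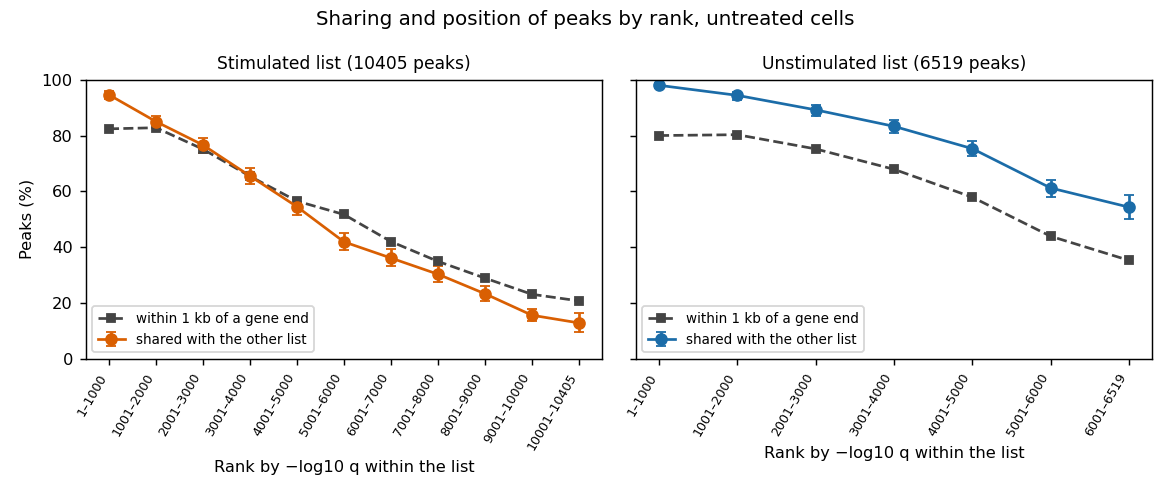
Share of peaks (%) that overlapped a peak of the other list, with 95% counting intervals, and share within 1 kb of a gene end, in bins of 1000 peaks ranked by −log10 q within the stimulated list (left) and the unstimulated list (right). Sharing was lower in each later bin of both lists, reaching 12.8% in the last bin of the stimulated list and 54.3% in that of the unstimulated list.

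Sharing moved with rank within a list. Of the first 1000 peaks of the stimulated list 94.6% were shared, and of the last 405 peaks 12.8%. Of the first 1000 of the unstimulated list 98.0% were shared, and of the last 519 peaks 54.3%. The plot of sharing by rank shows that position moved with it, since 82.4% of the first 1000 peaks of the stimulated list and 20.7% of its last bin lay at gene ends. In shared regions the stimulated peak was the wider one in 69.8% (3683 of 5280), with medians of 196 bp in stimulated and 153 bp in unstimulated cells. Regions of the stimulated list alone were mostly not edges of a neighbouring peak: the nearest peak of the unstimulated list lay at a median of 54740 bp, and within 1 kb in 4.32%. For regions of the unstimulated list alone the nearest stimulated peak lay at a median of 26132 bp, and within 1 kb in 10.3%. By chromosome, the share held by the stimulated list alone ranged between 39.7% on chromosome 7 and 51.4% on X.

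Of 21631 protein-coding genes, 1755 (8.11%) had a gene-end region in the stimulated list alone, 414 (1.91%) in the unstimulated list alone and 4579 (21.2%) in both lists. Among the 6748 genes with one in either list (31.2% of all), these were 26.0%, 6.14% and 67.9%. Within a locus, defined as the gene body with 20 kb on either side, 5118 genes (23.7%) had more regions in the stimulated list and 983 (4.54%) fewer. Among the 11449 genes with a region in the locus (52.9%), these were 44.7% and 8.59%. A gene counts as held by both lists where each has a gene-end region, even if at different places. Every count over a gene list below is to be read against these shares. The 18 lists of pathways held 338 distinct genes, all present in the gene table. In each of the 18 lists more members had more regions per locus in stimulated cells than had fewer, but with lists of equal length this held in 6 of 18 and turned round in 9. The median difference per locus was 0 over all genes and in each list except CARMA1 with NF-kB and the early genes, where it was 0.5.

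**Figure D2:**
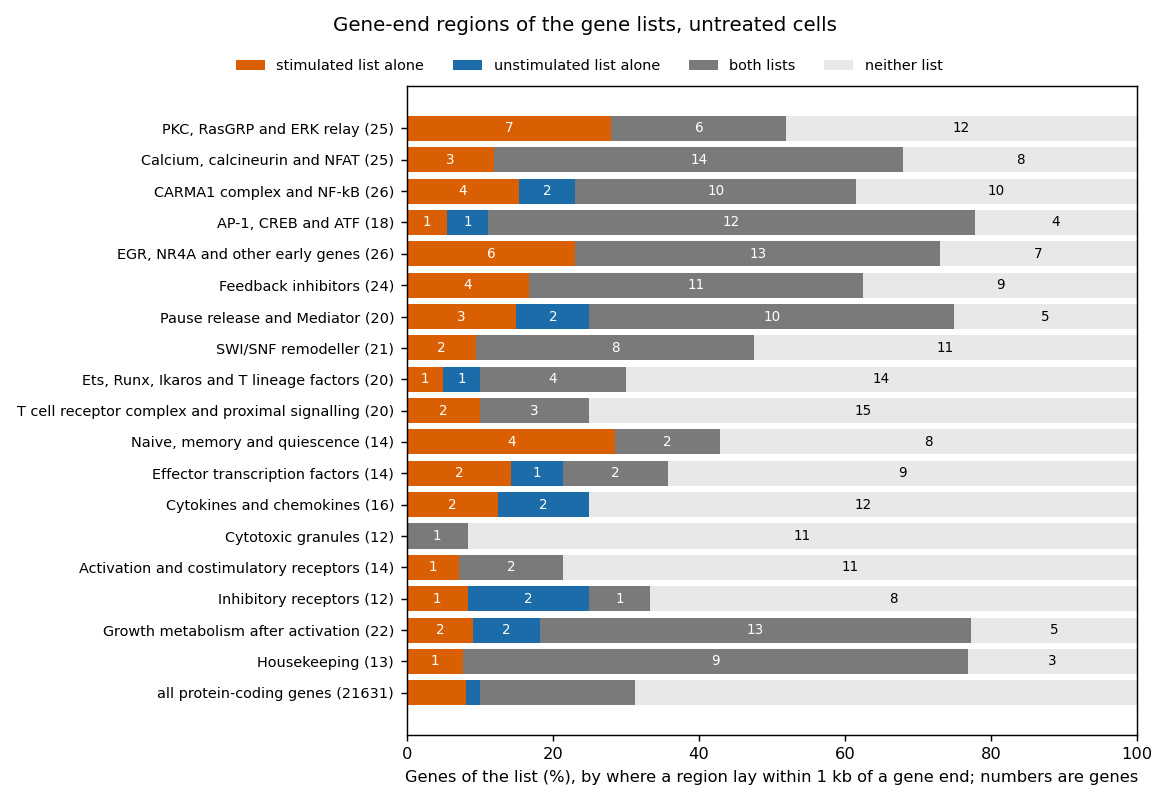
Genes of the 18 lists and all protein-coding genes (%) with a region within 1 kb of a gene end in the stimulated list alone, the unstimulated list alone, both lists or neither, with the number of genes in each segment and list sizes in parentheses. The relay from PKC to ERK had 7 of 25 members in the stimulated list alone, and granule genes had 1 of 12 members in either list.

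The relay that PMA acts on, from protein kinase C over Ras to ERK, had gene-end regions in the stimulated list alone at 7 of 25 members and in the unstimulated list alone at 0, with 6 in both. The 7 were 53.8% (25.1 to 80.8) of covered members, an interval that holds the 26.0% of all covered genes. Per locus, 12 members had more regions and 1 had fewer, but with lists of equal length the balance turned to -1. Among the kinase C genes, Prkcd, which encodes the delta isoform, had 2 regions in stimulated and 0 in unstimulated cells. Its start-site peak, centred 21 bases upstream, had −log10 q 3.75 and rank 3761 in the stimulated list. Prkce had 2 against 0 and Prkch 5 against 3, with gene-end peaks of −log10 q 1.91 and 2.11. Prkca had 1 region in each list at different places, the stimulated one at its start with 1.93 and the unstimulated one inside the gene with 2.23. Prkcb had 0 regions in stimulated cells and 1 in unstimulated cells. Prkcq, the isoform that T cell receptor signals recruit, and Rasgrp1, the main exchange factor of T cells, had no region in either list.

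Farther down this relay, Mapk3, which encodes ERK1, had a gene-end peak of −log10 q 2.04 in the stimulated list alone, and Elk4, a partner of serum response factor, one of 1.64. The start regions of the genes for the kinases upstream of ERK, Map2k1 and Map2k2, were shared, with 4.91 and 4.58 in stimulated and 4.66 and 6.57 in unstimulated cells. Prkcd was the 1 member of the 7 above −log10 q 3.

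Calcium and calcineurin genes were mostly open in both conditions. Gene-end regions were held by both lists at 14 of 25 members, by the stimulated list alone at 3 and by the unstimulated list alone at 0. The stimulated list alone thus held 17.6% of covered members, against 26.0% of all covered genes. Per locus, 10 members had more regions and 1 had fewer, a balance that fell to 2 with lists of equal length. The 3 were Ppp3cc and Ppp3r1, which encode a catalytic and the regulatory subunit of calcineurin, with −log10 q 3.82 and 2.22, and Nfatc2 with 1.78. Nfatc2, an NFAT factor of resting T cells, nevertheless had 3 regions in stimulated and 4 in unstimulated cells. Nfatc1, which NFAT itself induces, had 3 against 1, none at a gene end. Itpr3, a calcium release channel gene, had 3 against 0, all outside the gene, with −log10 q of 2.92, 2.87 and 1.99. Shared regions marked the genes of calcium entry, Stim2 and Orai1, and the calmodulin genes Calm2 and Calm3. Rcan1, a calcineurin inhibitor induced by NFAT, had its start region in both lists, with 5.96 in stimulated and 1.59 in unstimulated cells, and a second one inside the gene in stimulated cells alone, with 2.02.

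In the CARMA1 complex and NF-kB list, 4 of 26 members had gene-end regions in the stimulated list alone, 2 in the unstimulated list alone and 10 in both. The 4 were 25% of covered members, near the 26.0% of all covered genes. Per locus, 13 had more regions and 3 had fewer. This balance fell to 4 with lists of equal length and to 3 with the gene body alone. Nfkbib, which encodes the inhibitor IkB-beta, had a start-site peak of −log10 q 4.11 in stimulated cells, and Chuk, which encodes the kinase IKK-alpha, one of 3.65. Tab2, an adaptor of the TAK1 kinase, and Rel, which encodes c-Rel, had weaker ones, 2.18 and 1.74. On the other side stood Map3k7, which encodes TAK1 itself, with 3.16 in the unstimulated list, and Nfkbid with 2.75. Nfkbie, which encodes the inhibitor IkB-epsilon, had 4 regions in stimulated and 1 in unstimulated cells. Its start region was shared, with 3.62 in stimulated and 3.04 in unstimulated cells. The other 3, in the stimulated list alone, all lay outside the gene. They were 8174, 17659 and 18241 bases downstream of the start, with 4.25, 4.36 and 2.74. Traf2, a signalling adaptor of TNF receptors, had 4 against 1 and its strongest peak, 7.42, lay inside the gene and ranked 828 in the stimulated list. Rela had 1 region in each list, at opposite ends of the gene, with 2.84 at the start in stimulated cells and 3.72 past the end in unstimulated cells.

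**Figure D3:**
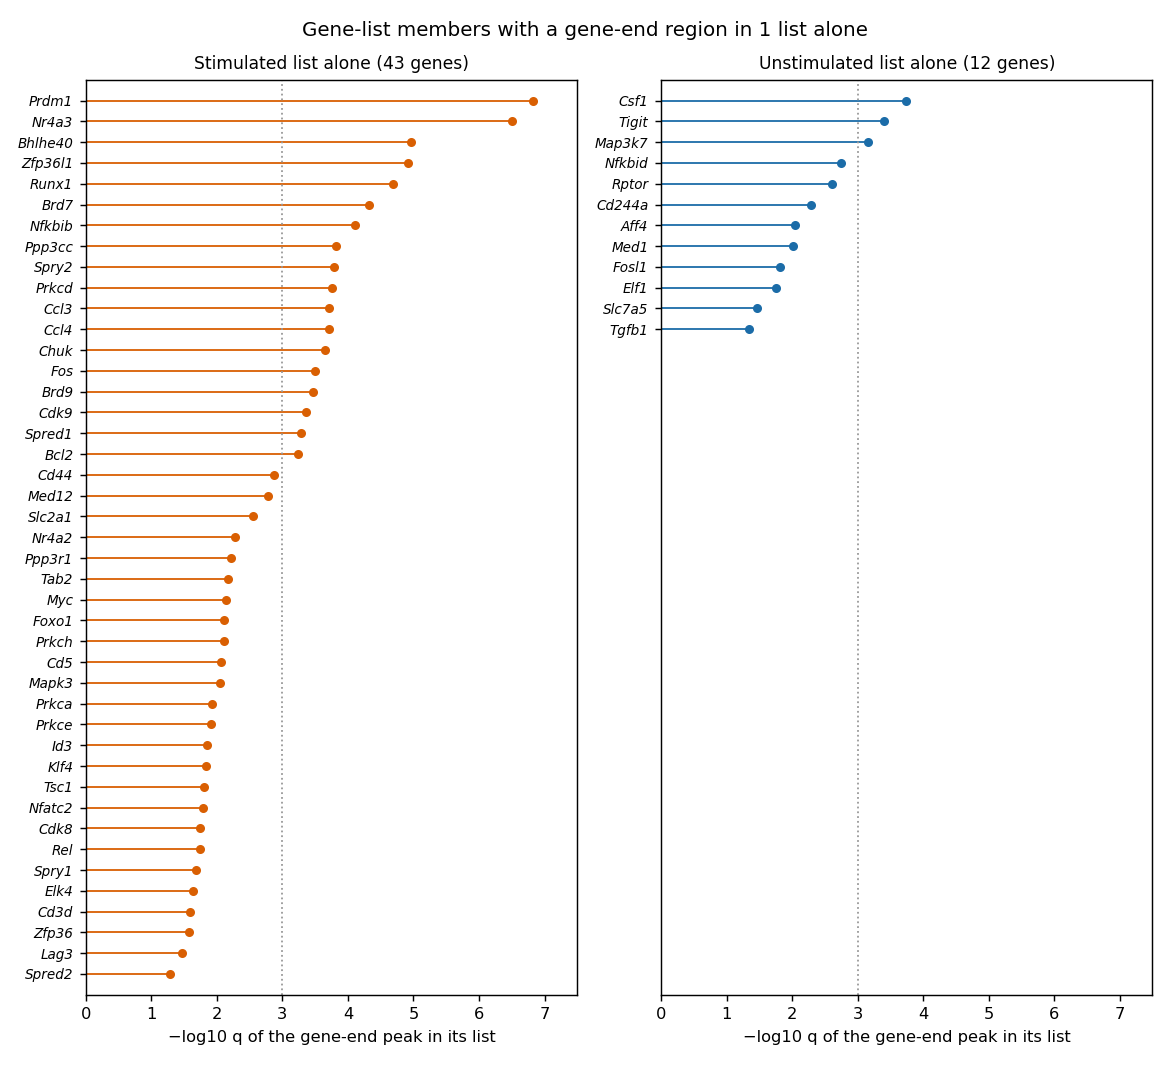
The −log10 q of the strongest gene-end peak, on the horizontal axis, of members of the 18 lists with gene-end regions in the stimulated list alone (left, 43 of 45 genes) or the unstimulated list alone (right, 12 of 13 genes), with a dotted line at 3. Prdm1 and Nr4a3 lie farthest right, at 6.82 and 6.51, and 18 of the 43 drawn reach 3.

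Most genes of the AP-1, CREB and ATF list had gene-end regions already in unstimulated cells, but Fos, Batf and Batf3 were among the exceptions. Of the 18 members of the AP-1, CREB and ATF list, 12 had gene-end regions in both lists, 1 in the stimulated list alone, Fos, and 1 in the unstimulated list alone, Fosl1 (−log10 q 1.82). Fos had 4 regions in stimulated and 2 in unstimulated cells. Its promoter peak, printed above, was 321 bp wide with a fold enrichment of 5.18 and −log10 q 3.50, and a second one of the stimulated list alone was centred at -5083 with 2.26. Its flanking regions, centred at -18501 and 12183, were shared, with 5.71 and 6.72 in stimulated and 2.87 and 4.14 in unstimulated cells. Junb counted as shared because of a region beyond its gene body with 1.31 in stimulated and 2.29 in unstimulated cells. At its start site, however, the stimulated list alone had a peak of 6.52 with fold 6.2. Jun, Jund, Fosb and Fosl2 had shared gene-end regions. The subunit genes Batf and Batf3 had no region in either list.

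**Figure D4:**
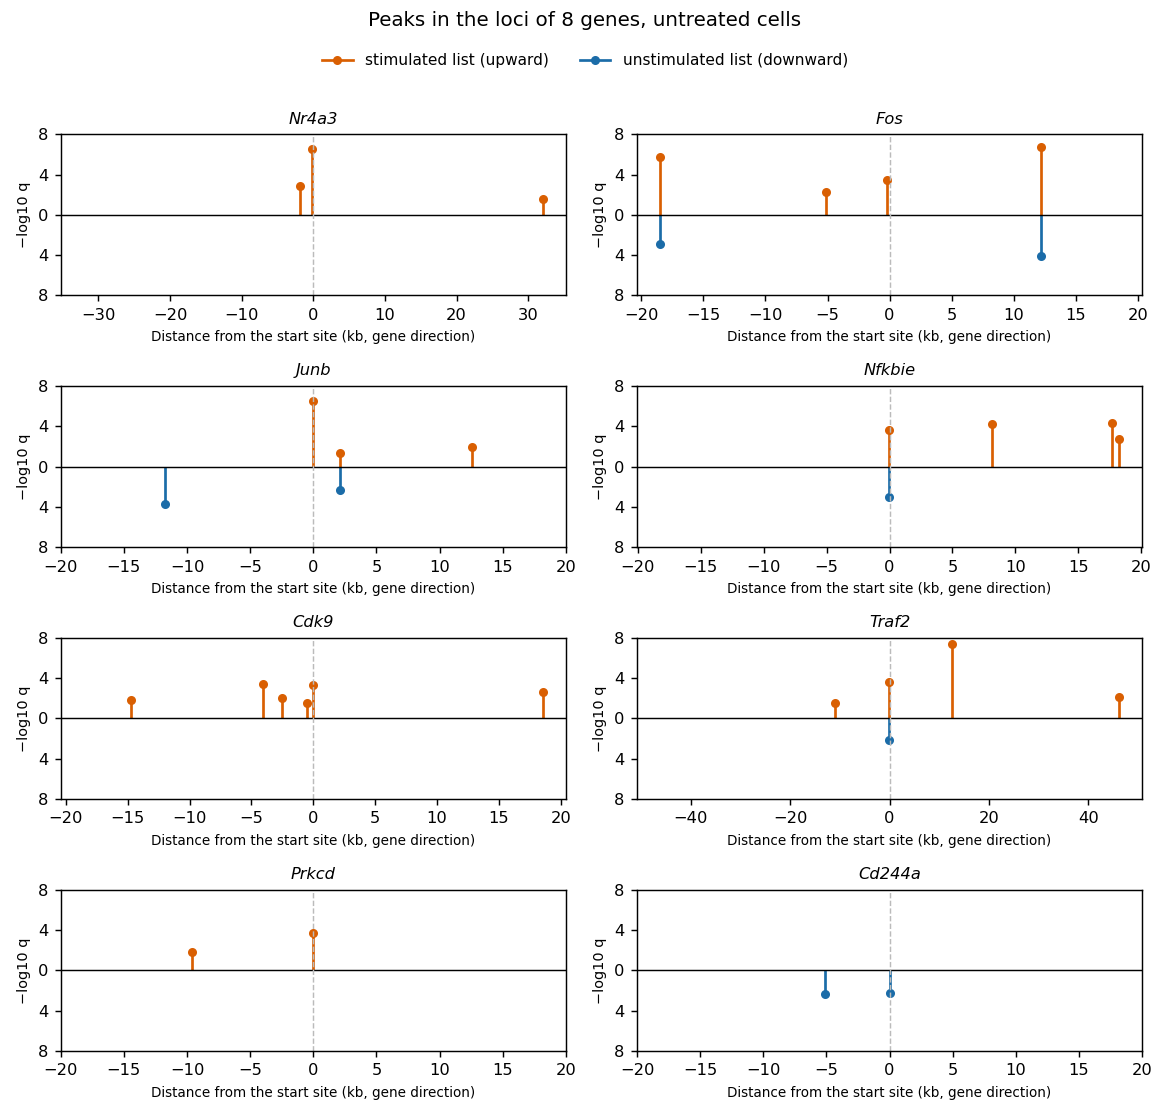
Peaks in the loci of 8 genes by distance of the region centre from an annotated start site (kb, positive in the direction of transcription), with −log10 q drawn upward for the stimulated list and downward for the unstimulated list. Nr4a3, Cdk9 and Prkcd had stimulated peaks alone, Cd244a unstimulated peaks alone, and the start region of Nfkbie and Traf2 was in both lists.

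Other early response genes had 6 of 26 members with gene-end regions in the stimulated list alone, 0 in the unstimulated list alone and 13 in both. The 6 were 31.6% (12.6 to 56.6) of covered members, an interval that holds the 26.0% of all covered genes. Per locus, 13 had more and 2 fewer regions, a balance that turned to -3 with lists of equal length. Nr4a3, an orphan nuclear receptor gene that antigen signals induce, had no region in unstimulated cells. Its promoter peak, printed above, had −log10 q 6.51 and ranked 1198 of 10405. Further stimulated peaks were centred at -1864 and 32057 from the start, with 2.84 and 1.53. Nr4a2 had 1 promoter peak in stimulated cells, 2.27, and none in unstimulated cells, while Nr4a1 had 3 regions against 2, none at a gene end. Zfp36l1 and Zfp36, which encode proteins that destabilise messenger RNAs of cytokines, had promoter peaks of 4.92 and 1.57 in stimulated cells alone. Myc, the growth regulator, had 3 regions in stimulated and 1 in unstimulated cells, and a peak of 2.13 at its gene end in stimulated cells alone, and Klf4 had one of 1.83. Egr1 had 1 shared gene-end region, and Egr2 and Egr3 had as many regions in stimulated as in unstimulated cells, 1 and 2.

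Inhibitors that switch these signals off again had 4 of 24 members with gene-end regions in the stimulated list alone, 0 in the unstimulated list alone and 11 in both. The 4 were 26.7% of the 15 covered members, near the 26.0% of all covered genes. Per locus, 11 had more regions and 0 had fewer, a balance that fell to 0 with lists of equal length. All 4 belonged to the Sprouty and Spred families, which restrain Ras and ERK: Spry1, Spry2, Spred1 and Spred2. Their strongest gene-end peaks had −log10 q 1.68, 3.79, 3.28 and 1.28. Spry2 had 2 regions against 0, Spred1 1 against 0 and Spred2 3 against 0, whereas Spry1 had 1 in each list. The weakest of them, at Spred2, ranked 10131 of 10405. With lists of equal length Spred2 had no region in either. The ERK phosphatase genes Dusp4, Dusp5 and Dusp6 and also Dusp1 and Dusp10 had shared gene-end regions, and Dusp1 had 3 regions in stimulated and 1 in unstimulated cells.

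Genes of transcription elongation and of nucleosome remodelling act on the polymerase and on its template. In the pause release and Mediator list, 3 of 20 members had gene-end regions in the stimulated list alone, 2 in the unstimulated list alone and 10 in both, with 7 more and 4 fewer per locus, a balance that turned to -1 with lists of equal length. Cdk9, the kinase that releases paused polymerase, had the highest difference of all list members, 6 regions in stimulated and 0 in unstimulated cells. Their −log10 q lay between 1.55 and 3.44, and the one at the start site had 3.36. Only 2 of the 6 reached −log10 q 3. The one at the start site touched the gene, and the others lay outside it, up to 14685 bp from its nearest end. The difference of 6 fell to 3 with lists of equal length and to 1 with the gene body alone. Med12 and Cdk8, of the Mediator kinase module, had start-site peaks of 2.77 and 1.74 in stimulated cells alone, and Med1 and Aff4 peaks of 2.02 and 2.05 in unstimulated cells alone. In the SWI/SNF list, the gene-end counts were 2, 0 and 8 of 21 members for the stimulated list alone, the unstimulated list alone and both. The stimulated list alone thus held 20% of covered members, against 26.0% of all covered genes. Per locus, 10 members had more regions and 0 fewer, a balance that fell to 4 with lists of equal length. The 2 genes of the stimulated list alone were the bromodomain subunit genes Brd7 and Brd9, with start-site peaks of 4.32 and 3.47. Neither peak was in any phenelzine list.

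Genes of T cell identity and effector functions had shares on either side of those of all genes. Gene-end regions in either list were at 5 of 20 genes of the T cell receptor list, 42.9% of the naive list and 35.7% of effector factors, against 31.2% of all genes. Of 20 genes of the T cell receptor complex and its proximal signalling, 2 had gene-end regions in the stimulated list alone, 0 in the unstimulated list alone and 3 in both. The 2 were Cd3d and Cd5, with −log10 q 1.59 and 2.07, and the region at Cd3d also counts for the loci of its neighbours Cd3e and Cd3g. Ptprc, the phosphatase CD45 needed to start receptor signals, went the other way, with 1 region in stimulated and 3 in unstimulated cells. Its regions of the unstimulated list alone lay inside the gene with 3.91 and 2.12. Among Ets, Runx and Ikaros factors, the counts of gene-end regions were 1, 1 and 4 of 20. Runx1, a lineage regulator with alternative promoters, had 1 region in each list at different start sites: 4.69 in stimulated and 2.25 in unstimulated cells.

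Among naive and quiescence genes 4 of 14 had gene-end regions in the stimulated list alone, 0 in the unstimulated list alone and 2 in both. These were Bcl2, an inhibitor of apoptosis, with −log10 q 3.23, Foxo1 with 2.11, Id3 with 1.85 and Tsc1 with 1.80. The 4 were 66.7% (22.3 to 95.7) of covered members, an interval that holds the 26.0% of all covered genes. Per locus 6 had more regions and 3 fewer, and with 20 kb flanks left off the balance turned to -1, and to -3 with lists of equal length. The effector factor gene Prdm1, which encodes Blimp-1, had 1 region in stimulated and 0 in unstimulated cells. It lay 941 bp outside the gene, with fold 7.16, −log10 q 6.82 and rank 1052, the strongest gene-end peak of the stimulated list alone among all list members. Hif1a, the hypoxia response factor gene, had 2 regions against 0, one of them 70 bases upstream of an annotated start site with 7.23. It lay 6389 bp from the nearest end of the gene and so was no gene-end region. Bhlhe40 had a gene-end peak of 4.95 in stimulated cells alone. Irf2 had 4 regions in stimulated and 1 in unstimulated cells.

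Cytokine genes had gene-end regions in either list at 4 of 16 members, against 31.2% of all genes. The loci of Ifng, Il2, Tnf, Lta, Csf2 and Il3 were empty in both lists. Of 16 members, Ccl3 and Ccl4 had a gene-end region in the stimulated list alone, which is 1 region, 29 bp outside Ccl3 and 783 bp inside the annotated end of Ccl4, with −log10 q 3.72, and Tgfb1 and Csf1 had one in the unstimulated list alone, with 1.34 and 3.74. Granule genes had gene-end regions at 1 of 12, Lamp1, in both lists. Srgn, which encodes the granule proteoglycan serglycin, had 4 regions in stimulated and 2 in unstimulated cells. Activation receptors had 1, Cd44, in the stimulated list alone (2.87) and 2 of 14 in both. Cd69 and Il2ra had no region. Of 12 inhibitory receptor genes, Lag3 had a gene-end region in the stimulated list alone (1.47), and Tigit and Cd244a in the unstimulated list alone (3.40 and 2.29). Cd244a had 0 regions in stimulated and 2 in unstimulated cells.

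Growth and glycolysis genes were largely open in both lists, 13 of 22 at gene ends, with 2 in the stimulated list alone and 2 in the unstimulated list alone. Slc2a1, the glucose transporter gene, had a start-site peak of −log10 q 2.55 in stimulated cells alone and 3 regions against 1. Slc7a5, the amino acid transporter gene, had one of 1.47 in unstimulated cells alone. Eno1, which encodes a glycolytic enzyme, had 2 regions in stimulated and 4 in unstimulated cells, among the lowest differences of the list members. Of 13 housekeeping genes 9 had gene-end regions in both lists and 1 in the stimulated list alone.

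Over all lists 45 genes had gene-end regions in the stimulated list alone and 13 in the unstimulated list alone. For the 45, the median of the strongest −log10 q was 2.22 (range 1.28 to 6.82), 18 reached 3, and 21 ranked within the first 6519 of the stimulated list, which is the length of the unstimulated one. For the 13 the median was 2.29 (1.34 to 3.74) and 4 reached 3. The phenelzine libraries give a view of the same places in other cells. The 45 genes had 46 distinct gene-end regions, of which 22 were in the stimulated phenelzine list, 12 in the unstimulated phenelzine list and 20 in neither. Over all regions of the stimulated list alone, at gene ends or not, 36.3% were in the stimulated phenelzine list, 29.6% in the unstimulated phenelzine list and 52.5% in neither. For regions of the unstimulated list alone the shares were close to these, 34.3%, 26.2% and 54.7%. Shared regions had 87.7%, 83.9% and 5.40%.

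The label of the cells could be checked only in part. Of 12 markers of CD8 T cells, Cd8a, Cd8b1, Cd2, Cd28 and Zap70 had no region in either list, 5 had more regions in stimulated cells and 0 had fewer, and their loci held 6 distinct regions in stimulated and 3 in unstimulated cells. Loci of 9 myeloid markers held 13 in stimulated and 6 in unstimulated cells, with gene-end regions in the stimulated list alone at Cd14, Spi1 and Cebpa. Itgam, Lyz2, Csf1r and Adgre1 were empty in both lists. Loci of markers of B cells held 4 and 5, of CD4 and regulatory T cells 5 and 3, of NK cells 2 and 1, of epithelial cells 1 and 0, and of stroma with endothelium 2 and 0 distinct regions, in stimulated and unstimulated cells. The part of other cells in the results was not tested.

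Gene families were set beside all genes by the share held in the stimulated list alone. Families were gathered by gene symbol, so some hold genes that share the name but not the function. Of 23 families with at least 15 covered genes, 9 lay above the 26.0% of all covered genes and 14 below. Zinc-finger genes named Zfp were the highest, with 62 in the stimulated list alone, 8 in the unstimulated list alone and 83 in both, so that 40.5% (32.7 to 48.7) of the 153 covered were in the stimulated list alone. Splicing factors and hnRNPs were the lowest, with 3, 0 and 50, or 5.66% (1.18 to 15.7). These intervals take genes as independent, which neighbours in clusters are not. Across all 36 families, 31 had more members in the stimulated list alone than in the unstimulated list alone, 5 had as many, and 0 had fewer.

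**Figure D5:**
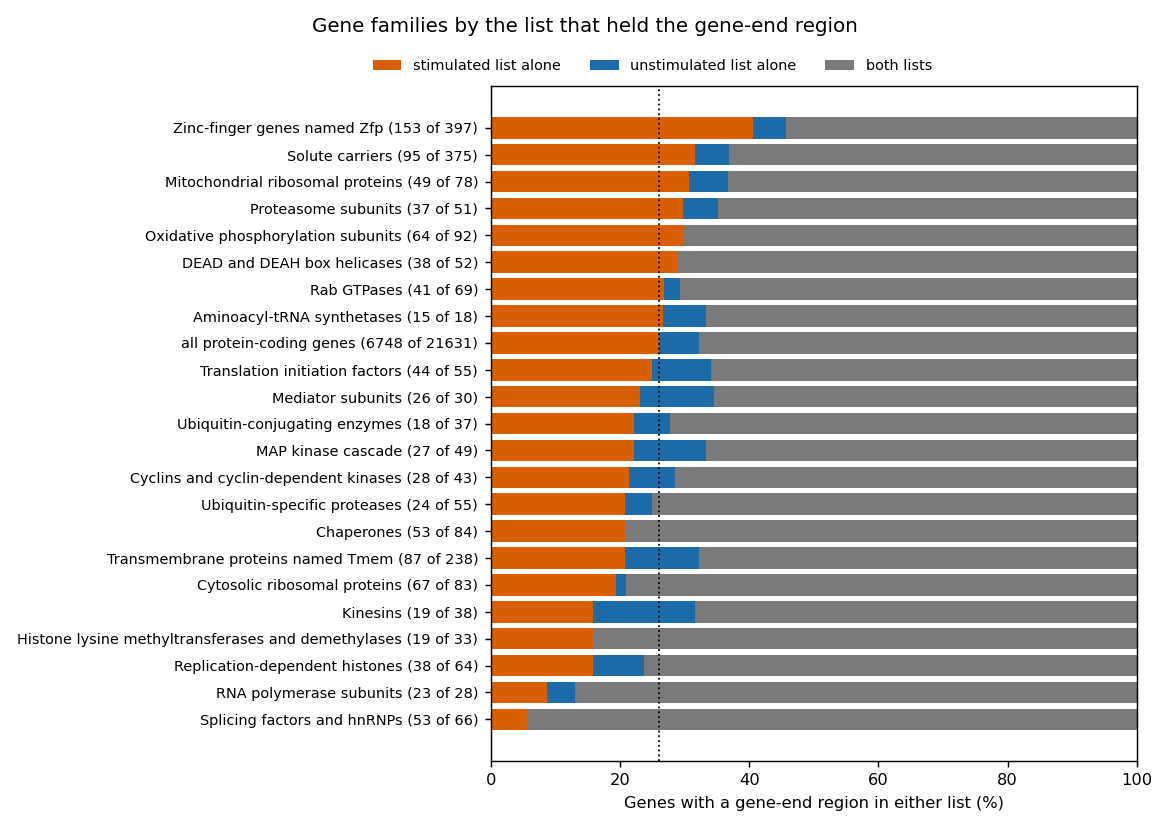
Genes of families with at least 15 covered genes, all but 1 of which are drawn, as shares (%) whose gene-end region was in the stimulated list alone, the unstimulated list alone or both lists, with covered and total genes in parentheses and a dotted line at 26.0%, the share of all covered genes in the stimulated list alone. Zinc-finger genes named Zfp stand at the top with 40.5% and splicing factors at the bottom with 5.66%.

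Translation and energy genes are given by the same counts. Of covered genes, the stimulated list alone held 19.4% of cytosolic and 30.6% of mitochondrial ribosomal proteins and 29.7% of oxidative phosphorylation genes. For proteasome genes, helicases and chaperones the shares were 29.7%, 28.9% and 20.8%. The counting interval of each family held the 26.0% of all covered genes. Cytosolic ribosomal proteins had 13 genes in the stimulated list alone, 1 in the unstimulated list alone and 53 in both. Rpl37a, Rps28, Rpl7a and Rpl10a were the strongest of the 13, with −log10 q 10.5, 6.79, 6.2 and 5.16, and Rps16 the 1 gene of the unstimulated list, with 4.67. Rps12 had the highest shared value, 14.8 in stimulated and 5.45 in unstimulated cells. Mitochondrial ribosomal proteins had 15, 3 and 31 genes in the stimulated list alone, the unstimulated list alone and both. Genes of oxidative phosphorylation had 19, 0 and 45, led by Ndufa7 (6.79) and Atp5mpl (6.57). The 19 include the assembly factor genes Ndufaf1 and Ndufaf6. Proteasome genes had 11, 2 and 24, with Psmd2 at 7.45. The 11 include the assembly gene Psmg4, and the 2 include Psmc3ip, which encodes no proteasome subunit. Mrpl32 and Psma2 share 1 region, at 15.6 in stimulated and 9.16 in unstimulated cells, and are counted in both families. DEAD and DEAH box helicases had 11, 0 and 27, and chaperones 11, 0 and 42, among them Hsp90ab1 (4.36).

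Among families of immune function, gene-end regions in either list were at 12.7% of chemokines with their receptors and 13.3% of interleukins with theirs. They were at 28.9% of interferon-induced genes, a family that holds Ifi and Ifit genes besides GTPases. The share was 52.6% for interferon regulatory factors and STATs, counted with genes of like symbol such as Irf2bp1. Of all genes it was 31.2%. Chemokines and their receptors had 6 of 55 genes in the stimulated list alone, 0 in the unstimulated list alone and 1 in both: besides Ccl3 and Ccl4 these were Cxcr4 (−log10 q 3.03), Cxcl2 (1.99), Cxcl1 (1.68) and Cxcl10 (1.19). Interleukins and their receptors had 5, 3 and 3 of 83. Outside these families, kinesins had 3, 3 and 13 of 38, with Kif11, the mitotic spindle motor gene, at 6.78 in the unstimulated list alone. In the H2 locus, H2-D1 was shared with 24.4 in stimulated and 21.6 in unstimulated cells, while H2-Q4 (7.51) was in the stimulated and H2-Q7 (7.08) in the unstimulated list alone. These class I genes are near copies of one another, so reads could be placed at the wrong one. Of 1110 olfactory receptor genes, 1 was in the stimulated list alone and 1 in both, and the 39 Hox genes had no region in any locus.

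Among gene-end regions of the stimulated list alone, Rpl37a led with fold 8.91 and −log10 q 10.5, rank 236. It was followed by Yars2, a mitochondrial tyrosyl-tRNA synthetase gene, with 8.69 and 10.4, and Phc3, a Polycomb gene, with 8.07 and 9.12. Then came Gm10509 with −log10 q 8.90, Camkmt and Prepl, which share a region of 8.89, and Eef1e1, a cofactor gene of the tRNA synthetase complex, with 8.88. Dnttip1 and Wfdc3 share one of 8.55, the ribonuclease genes Ang and Rnase4 one of 8.42. The histone gene H4c3 had 8.38 and the phosphatase gene Ppm1d 8.33. Of these 10 regions, 8 were also in the stimulated phenelzine list and 9 in the unstimulated phenelzine list.

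The strongest of the unstimulated list alone were at Trmt61a, a tRNA methyltransferase gene (fold 8.29, −log10 q 8.79, rank 169), H2-Q7 (7.08), Kif11 (6.78) and Mycbp2, a ubiquitin ligase gene (6.44). The shared end of Naa50 and Atp6v1a (6.37), that of Gnpat and 2810004N23Rik (5.85), Clcn7 (5.76) and the shared end of Armcx5 and Gprasp1 (5.74) followed. The shared regions with the highest fold at gene ends were at Gm20594, with fold 34.5 in stimulated and 38.9 in unstimulated cells, and Lars2, with 18.6 and 15.8. Next were the promoter between Hmmr and Nudcd2 (15.7 in stimulated and 10.2 in unstimulated cells), H2-D1 (11.6 and 11.2), Rpsa (11.4 and 7.73) and the shared end of Rad51ap1 and D6Wsu163e (11.3 and 8.67). Fold enrichments belong to their own list and are set side by side here without a comparison.

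Away from gene ends, −log10 q in the stimulated list alone was highest inside Arhgef4, a guanine nucleotide exchange factor gene, 59644 bp from its nearest end, with fold 9.89 and −log10 q 13.0. One near the start of chromosome 9, 313010 bp from Alkbh8, had 9.48 at a fold of 4.88 only. Others lay inside Baz2b (7.74), inside Traf2 (7.42), inside Asb2 (7.29) and 65159 bp from Chd2 (7.23). In the unstimulated list alone they lay 165470 bp from Egln3 (6.70), 372590 bp from Csmd1 (6.13), 210443 bp from Rplp1 (4.63) and 58957 bp from F13a1 (4.52). Counted at gene ends, the differences were highest at Bad, a pro-apoptotic gene, and the histone gene H4c8, each with 3 regions in stimulated and 0 in unstimulated cells. Ecsit, Taf6l, Gpr19 and Pqlc3 each had 2 more. The lowest was Stk35, with 0 against 2, and Cks2, Maco1, Tbcb, Polr2i and Raver1 followed with 1 fewer. Tbcb and Polr2i share the region concerned.

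Distances to annotated start sites were then compared. On chromosomes with promoter sequences, which leave out 18, 31.3% of regions of the stimulated list alone were centred within 1 kb of a start site, 31.6% of those of the unstimulated list alone and 66.6% of shared ones. Their median centres were 37, 40 and 60 bases upstream of the start, in the same order, and 73.7% (71.4 to 75.8), 75.1% (70.4 to 79.3) and 81.4% (80.1 to 82.7) were centred upstream.

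Motifs were counted in 21020 promoter windows, on both strands, of which 1544 overlapped a region of the stimulated list alone, 355 of the unstimulated list alone and 4040 of both. The AP-1 site TGANTCA was in 4.60% (3.61 to 5.77) of promoters of the stimulated list alone, 3.10% (1.56 to 5.48) of the unstimulated list alone and 3.84% (3.27 to 4.48) of shared ones, against 7.04% of all promoters. TGGAAA, the core of NFAT sites, was in 17.5%, 15.5% and 13.9% of them, against 19.5% of all. The NF-kB site was in 7.06%, 10.7% and 6.06%, against 6.34%, and the EGR site GCGTGGG in 8.74%, 10.7% and 8.32%, against 6.42%. The serum response element CArG was in 1.36%, 1.13% and 1.36%, against 1.54%. For these motifs of activation, the interval of the stimulated list alone held the value of the unstimulated list alone or overlapped its interval. The class of the unstimulated list alone is small, so its intervals are wide. Against shared promoters, the NFAT interval of the stimulated list alone lay higher without overlap, and those of the other motifs overlapped.

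Motifs of promoters active in many cell types were also counted. TGACGT was in 13.9% (12.2 to 15.7) of promoters of the stimulated list alone, 12.1% of the unstimulated list alone and 18% (16.8 to 19.2) of shared ones, against 8.57% of all. CCGGAAG, the site of ETS factors, was in 23.8%, 24.5% and 26.9%, against 11.7%. GGGCGG, bound by SP and KLF factors, was in 68.9%, 70.7% and 74.6%, against 46.6%. GCATGCG was in 6.22% (5.06 to 7.54), 6.48% and 12.6% (11.6 to 13.6), against 4.47%, and CCAAT in 40.2%, 34.6% and 51.0%, against 38.5%. The median GC content was 61.3%, 62.3% and 62.3% in the 3 classes of overlapped promoters and 56.7% in all.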

How the data were processed

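ATAC-seq was deposited as 1 list of broad peaks per library. The submitters' processing notes name the build mm10 and, in no stated order or role, HOMER, MACS2, Picard, Bowtie2 2.2.5 and Trimmomatic 0.33. Other versions, settings and filters: not given in the sources used here. The score that the authors deposited equals 10 × −log10 q, cut to a whole number, in 99.98% of stimulated and 100% of unstimulated peaks. The deposited fold enrichment is a ratio of pileup to local background, and the deposited p-value and q-value are on the −log10 scale. Such values rank peaks within 1 list only.

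Peaks on chromosomes 1 to 19 and X were merged by overlap of at least 1 bp (Python 3.11.15, pandas 2.3.3). Genes were 21631 protein-coding genes of the RefSeq table for GRCm38.p6, whose coordinates are those of mm10. A gene-end region lies within 1 kb of either end; the locus adds 20 kb to the body. ATAC-seq has no strand, so neighbours can share a region. Motifs were matched in RefSeq promoters; CArG and NF-kB are the usual degenerate sites. Background pileup came from the pair of fold and −log10 p that recurred most, in 190 stimulated and 107 unstimulated peaks. Merging and gene assignment were tested on simulated data. Shares have exact 95% Clopper-Pearson intervals (scipy 1.17.1). Nothing was tested between conditions.

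Genes were named by rule: the 10 gene-end regions of the stimulated list alone and 8 of the unstimulated list alone with the highest −log10 q, 6 shared ones by fold in the stimulated list, 6 and 4 distal ones over 10 kb from a gene end, every member of the signalling and early response lists with a gene-end region in 1 list alone, up to 4 examples for other lists and families, and the 6 genes at either extreme of the difference at gene ends. A few items that the rule names are not reported here. Members that illustrate an absence or a shared region were named after their values were seen. The comparison, the members and the lists were chosen with earlier results of these data known. Alternatives were a −log10 q of at least 3, a fold of at least 5, lists of equal length, an overlap of 50% of the shorter peak, joining peaks within 200 bp, gene-end windows of 500 bp and 2 kb, and loci of the body alone or with 50 kb.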

Additional observations from a re-analysis of the deposited data

Results flagged for a closer look

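Peaks on chromosome Y entered no comparison. The stimulated list held 9 of them and the unstimulated list 6, each above the level of 0 that a chromosome without signal would give. The cause of the difference was not tested.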

How the results depend on the processing

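No paired analysis was possible because each condition had 1 library and nothing was tested. An overlap of 50% of the shorter peak and joining peaks within 200 bp left the 3 region counts within 1.5 times. With −log10 q of at least 3, the stimulated list alone held 2578 regions, the unstimulated list alone 697 and both lists 2477. The gene-end shares were then 63.2%, 66.4% and 81.4%, and 2524 genes had gene-end regions in both lists. With a fold of at least 5, the stimulated list alone held 2230 regions and both lists 2495. Gene-end windows of 500 bp gave shares of 30.4%, 31.2% and 68.7% for the stimulated list alone, the unstimulated list alone and both, and windows of 2 kb gave 38.0%, 38.8% and 75.4%.

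With lists of equal length, which balances the counts by construction, the lists alone held 2144 stimulated and 2133 unstimulated regions. Gene-end regions were in the stimulated list alone at 1074 genes and in the unstimulated list alone at 927, and 2611 genes had more and 2313 fewer regions per locus. With the gene body alone, 2601 had more and 529 fewer. At equal length 6 pathway lists had more members with more regions than with fewer. The difference was then -1 for the PKC relay and for pause release, -2 for AP-1, the T cell receptor and inhibitory receptors, -3 for early genes and naive genes, -4 for Ets and Runx factors and -6 for growth metabolism. With the gene body alone it was -1 for naive genes. Among promoters of the stimulated list alone at −log10 q of at least 3, shares were 3.44% for AP-1, 16.3% for TGACGT, 15.6% for NFAT, 27.0% for ETS, 74.4% for SP and KLF, 8.57% for NRF1 and 47.1% for CCAAT. The causes were not tested. Without read totals, depth limits what absence from a list can show.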

Other observations

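Several list members had a region at an annotated start site that lies inside the gene, so that the counts at gene ends left it out. In stimulated cells alone, Ikbkg, which encodes the NEMO subunit of the IKK complex, had a peak 14 bases upstream of such a start with −log10 q 2.2, and a stronger one at -323 with 3.61. Elf1, an Ets factor gene, had one at -31 with 3.13 in stimulated cells alone, while its gene-end region, with 1.75, was in unstimulated cells alone. Per1, a clock gene, had one at -87 with 3.16 in stimulated cells alone. Dgkz, which encodes a kinase that removes diacylglycerol, had one at -132 with 2.00, and Srgn one at -34 with 1.11, both in stimulated cells alone. These genes were chosen after their values were seen.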
